A study of Mus musculus with 8 samples.

Results

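The genes described here build cholesterol or control where it goes, in mouse Gr-1+ cells, the myeloid cells that carry the surface antigens Ly6G or Ly6C. There were 31 of them, 17 enzymes of the synthesis pathway and 14 genes that sense, export, carry or store sterols. They were found by symbol in the gene names of the expression table, and each symbol was represented by its row of 200 bp or more with the highest mean level and a status of OK in all 8 libraries. Such a row existed for 30 symbols, and Hmgcs1, an early enzyme of the pathway, is not analysed here. A level of at least 1 FPKM (fragments per kilobase of transcript, scaled to the mapped fragments of the library) in at least 2 libraries was reached by 29 of the 30, among 13065 gene names in all. Idi1, the isomerase that makes the branched building block, lay between 0.179 and 0.895 FPKM in every library and was not tested.

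RNA came from 4 groups of C57BL/6 mice, with 2 libraries in each, and every library was a pool of 5 mice. The groups were Gr-1+ cells of wounds of diabetic mice (homozygous, Lepr -/-), wounds of nondiabetic mice (heterozygous, Lepr +/-), bone marrow of diabetic mice and bone marrow of nondiabetic mice. All mice were 8 to 16 weeks old, of both sexes, and had received 2 excisional wounds 8 mm across, so the marrow also came from wounded animals, and all cells were taken on day 3 after wounding. Wound and marrow cells of a genotype came from the same 10 mice. Wounds were cut out with a 2 mm border of skin and dissociated with enzymes, and the cells were taken with magnetic beads. Each nondiabetic mouse still carried 1 disrupted copy of Lepr, the leptin receptor gene, and the labels name no allele. Nothing in the labels says that the pools were independent in other ways, so every p-value measures spread between pools of mice.

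Cells make cholesterol from acetyl-CoA by way of mevalonate, isoprenoids, squalene and lanosterol. When membranes of the endoplasmic reticulum run short of sterol, the escort protein SCAP carries SREBP to the Golgi, where it is cut and sent to the nucleus to switch on the enzymes; INSIG proteins hold it back when sterol is plentiful. Excess sterol yields oxysterols that activate the LXR receptors, which switch on export pumps such as ABCA1, a system best known from macrophages that clear dead cells.

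The libraries differed in depth and in the cell markers they held. The sum of FPKM ranged from 1544804 to 2788448. Among loci of 300 to 500 bp, low values clustered at a step that, read as 1 fragment, places the libraries at about 20700000 to 39400000 fragments. Lepr had 1.37 and 1.22 FPKM in diabetic wound, against 4.95 and 4.66 in nondiabetic wound. In marrow it had 0.039 and 0.186 FPKM in diabetic pools, against 0.477 and 0.689 in nondiabetic pools. The sorted antigen gene Ly6g had 12.2 and 12.9 FPKM in diabetic wound and 17.2 and 19.2 in nondiabetic wound, against 566 and 569 in diabetic marrow and 808 and 899.5 in nondiabetic marrow. Wound libraries held far less Ly6g transcript than marrow libraries, and macrophage, keratinocyte and fibroblast markers were higher in them, with values given beside the results. In such bulk samples, fewer cells of a type and less RNA per cell cannot be told apart.

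Some rows held only part of a gene, on the mm9 genome of the table set against the GENCODE annotation of the same build. The rows of Fdps, Fdft1, Lss and Idi1 covered 11.4%, 5.35%, 12.9% and 11.8% of the annotated exon bases of those genes. The Lss row, on chromosome 10 from 76018474 to 76019868, held no coding base, and the Fdps row, on chromosome 3 from 88903020 to 88903420, held 141 coding bases. The row that names Tm7sf2, a sterol reductase gene, also names 1110014N23Rik and Zfpl1, lies on chromosome 19 from 6080685 to 6084971, and is 12312 bp away from the annotated Tm7sf2. Its values are given as those of the Tm7sf2 row and cannot be assigned to that gene. Some rows reached far past their gene, among them Srebf1 with 93725 bp, Sqle with 42972 bp, Acat2 with 29233 bp and Mvd with 15630 bp outside the annotated span. The table does not give strand, and 29 of the 30 rows overlapped their own gene on its strand, as inferred from the numbering of the loci.

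In marrow, the measured synthesis enzymes were lower in diabetic mice. All 15 rows tested for them fell (limma, adjusted p under 0.05), where 46.5% of all names tested were called, 32.8% lower and 13.7% higher. The median difference of the enzymes was -0.74 on the log2(FPKM + 1) scale, against -0.09 for all names. The range ran from -1.54 for Cyp51 to -0.17 for the Tm7sf2 row, a call that ended under both scalings tried (adjusted p = 0.517 and 0.609) and left 14 lower. The Tm7sf2 row is counted with the enzymes throughout although it cannot be assigned to that gene. In all 15, the 2 diabetic pools lay below the 2 nondiabetic pools, as the libraries of the genotypes did not overlap for 73.2% of all names.

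Among the tested enzymes, Cyp51 and Sqle showed the largest marrow differences. Cyp51, the demethylase that starts the conversion of lanosterol (chromosome 5, 4080552 to 4104760), had 1.79 and 1.62 FPKM in diabetic marrow, against 6.79 and 6.96 FPKM in nondiabetic marrow. Both diabetic pools were far below either nondiabetic pool, with a ratio of mean FPKM of 0.248 (log2 difference -1.54, SE 0.054, adjusted p = 1.73e-05). Sqle, the squalene epoxidase that spends oxygen on the path to sterols, had 1.43 and 1.29 FPKM in diabetic marrow, against 4.76 and 5.06 in nondiabetic marrow. Its ratio was 0.277 (-1.33, SE 0.061, adjusted p = 4.76e-05). Earlier in the pathway, Mvk, mevalonate kinase, had 1.26 and 1.37 FPKM in diabetic marrow, against 3.75 and 3.89 in nondiabetic marrow (-1.06, SE 0.070). Fdps and Fdft1, which make farnesyl diphosphate and then squalene, differed by -1.09 (SE 0.164) and -0.98 (SE 0.060), on their partial rows. Mvd, the decarboxylase that ends the mevalonate steps, had the highest FPKM of the enzyme rows, on a row with 15630 bp outside the annotated gene. That row had 74.1 and 78.1 FPKM in diabetic marrow, against 117 and 107 in nondiabetic marrow. The remaining enzymes had ratios of mean FPKM between 0.526 for Nsdhl and 0.885 for the Tm7sf2 row, with Sc5d at 0.565, Pmvk at 0.575, Ebp at 0.605, Dhcr7 at 0.613, Hsd17b7 at 0.621 and Acat2 at 0.623. Lss, at 0.547, was no longer called without diabetic marrow pool 2 (adjusted p = 0.0853) or nondiabetic marrow pool 2 (adjusted p = 0.0604).

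**Figure D1:**
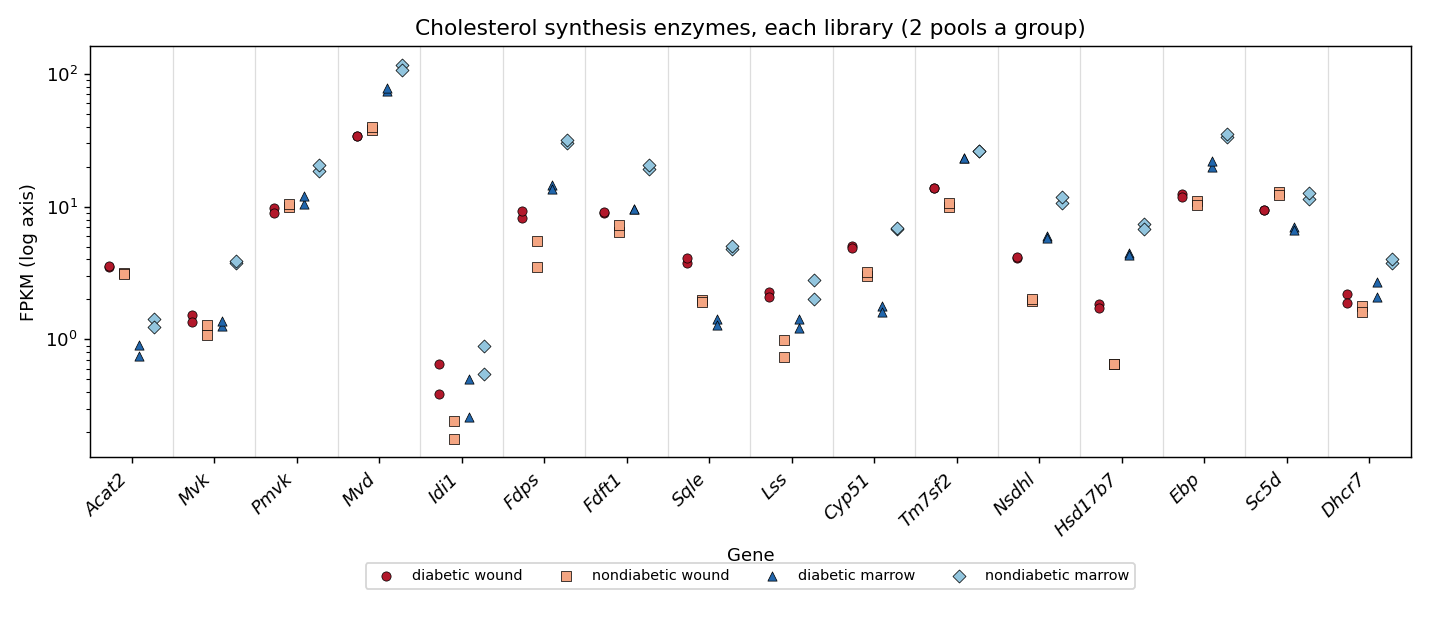
FPKM of 16 synthesis enzymes in pathway order (x axis) on a log axis (y), with 1 point per library and 4 groups of 2 pools, left to right diabetic wound, nondiabetic wound, diabetic marrow and nondiabetic marrow. Nondiabetic marrow is the highest group in 14 of 16 genes, Idi1 and the Tm7sf2 row included, and the share over all names was not computed. Its 2 libraries also had the largest sums of FPKM, 2788448 and 2402473. Cyp51 has 1.79 and 1.62 FPKM in diabetic marrow against 6.79 and 6.96 in nondiabetic marrow.

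At the wound, the same enzymes leaned the other way by count, in part on rows that are partial or cannot be assigned. Of the 15, 8 rose in diabetic wound cells and 2 fell, where 53.7% of all names were called, 32.0% higher and 21.7% lower. Their median difference was 0.36, against 0.07 for all names. The 8 were Fdps, Fdft1, Sqle, Lss, Cyp51, the Tm7sf2 row, Nsdhl and Hsd17b7, a stretch of the pathway from farnesyl diphosphate to the demethylation of lanosterol. Counting only rows on their own gene with at least 50% of its exon bases left 4 of 11 higher, a selection added after the data were seen. They were Sqle, Cyp51, Nsdhl and Hsd17b7, a share near the 32.0% of all names called higher. The 2 that fell, Mvd and Sc5d, are among the 11. For all 15 enzymes the pools of the genotypes did not overlap in wound, as for 78.8% of all names.

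Hsd17b7 and Nsdhl, which act together to strip methyl groups from the sterol ring, carried the clearest wound differences. Hsd17b7, a 3-ketosterol reductase (chromosome 1, 171879680 to 171899359), had 1.86 and 1.73 FPKM in diabetic wound, against 0.649 and 0.658 in nondiabetic wound. That is a ratio of mean FPKM of 2.74 (log2 difference 0.76, SE 0.062, adjusted p = 2.43e-04). Nsdhl, a sterol dehydrogenase (chromosome X, 70163924 to 70203804), had 4.07 and 4.19 FPKM in diabetic wound, against 1.93 and 2.01 in nondiabetic wound. Its pools differed by a ratio of 2.09 (0.79, SE 0.057, adjusted p = 1.58e-04). Sqle had 3.79 and 4.08 FPKM in diabetic wound, against 1.99 and 1.92 in nondiabetic wound (0.74, SE 0.061). Cyp51 had 5.05 and 4.90 FPKM in diabetic wound, against 3.02 and 3.21 in nondiabetic wound (0.54, SE 0.054). In each of these 4 genes, diabetic pools were above nondiabetic pools in the wound and below them in the marrow.

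Enzymes at both ends of the pathway did not rise in diabetic wounds. Sc5d, a desaturase near the end, fell, with 9.51 and 9.40 FPKM in diabetic wound, against 12.8 and 12.3 in nondiabetic wound (-0.38, SE 0.053, adjusted p = 0.00193). Mvd was called lower at -0.17 (SE 0.057, adjusted p = 0.0471), but missed the threshold in 12 of the alternative fits, leaving out any of 6 libraries among them. Acat2, Mvk, Pmvk, Ebp and Dhcr7 were not called, with differences of 0.14, 0.16, -0.12, 0.16 and 0.17. Pmvk was called lower under quantile (-0.19) and median-ratio (-0.22) scaling and with summed rows (-0.34), and summed rows gave -0.091 for Acat2, not called. The 95% interval of Acat2, an acetyl-CoA thiolase, ran from -0.03 to 0.30, and that of Dhcr7, the reductase that ends the pathway, from -0.09 to 0.42.

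The difference between the genotype effects of the tissues was tested directly, as wound minus marrow. It was positive and past the threshold for all 15 enzymes, where 58.5% of all names were called, 39.1% positive and 19.4% negative, and its median was 1.22 against 0.19 for all names. Cyp51 and Sqle had the largest, at 2.08 (SE 0.077, adjusted p = 3.33e-05) and 2.07 (SE 0.087, adjusted p = 4.47e-05), and Sc5d the smallest, at 0.36 (SE 0.075). Leaving out any 1 library kept the count at 15. With median-ratio scaling it was 13, since Sc5d (0.12, adjusted p = 0.241) and Mvd (0.13, adjusted p = 0.235) were no longer called. With summed rows Acat2 (adjusted p = 0.117) and Pmvk (adjusted p = 0.18) were not called.

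**Figure D2:**
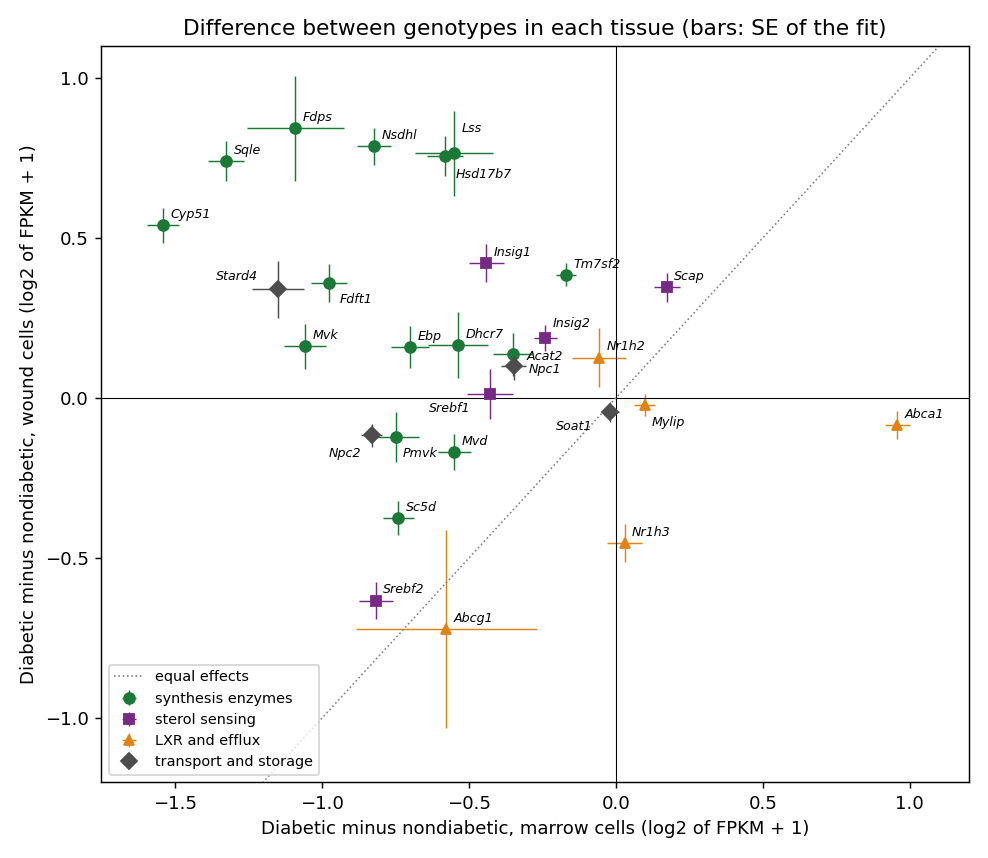
Diabetic minus nondiabetic difference of each of the 29 tested genes in marrow (x axis) and in wound (y axis), on the log2(FPKM + 1) scale, with SE of the fit as bars, and colours for the 4 roles. All 15 synthesis enzymes lie left of zero and above the dotted line of equal effects, while Abca1 lies far to the right at 0.96 in marrow.

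Markers of other cells moved in the same comparisons, and their part in these differences was not tested. Of all names, 32.8% were called lower and 13.7% higher in diabetic marrow, and 32.0% higher and 21.7% lower in diabetic wound. Some marker counts lie near these shares, such as 4 of 10 dividing cell genes higher in wound and 2 of 6 neutrophil genes lower in marrow. All 10 genes of the dividing cell list, such as Mki67 and Top2a, were lower in diabetic marrow, with summed levels of 186 to 188 FPKM against 288 to 302 in nondiabetic marrow. In wound their sum was 56.1 FPKM in both diabetic pools, against 40.9 in both nondiabetic pools, and 4 of 10 rose. In the immature granulocyte list, 4 of 4 measured genes of 5 listed fell in diabetic marrow, with sums of 478 to 505 FPKM against 776 to 828 in nondiabetic marrow. Of the 6 tested neutrophil genes 5 fell in diabetic wound, with sums over 7 measured of 260.4 to 260.8 FPKM against 392 to 436 in nondiabetic wound, and 2 fell in diabetic marrow. The 8 keratinocyte genes all rose in diabetic wound, with sums of 619 to 638 FPKM against 253 to 258 in nondiabetic wound. The only sebaceous gland gene measured of 4 listed, Elovl3, stood at 2.56 to 2.78 FPKM in diabetic wound against 0.119 to 0.177 in nondiabetic wound. Endothelial genes rose in 3 of 5 cases (sums of 56.0 to 56.5 FPKM in diabetic wound against 34.2 to 35.0 in nondiabetic wound), whereas fibroblast sums were lower in diabetic wound (257 to 275 FPKM against 380 to 384 in nondiabetic wound, with 1 gene higher and 2 lower of 5). None of the markers of the lists other than the neutrophil and erythroid ones was at 0 in either wound group, while in marrow Krt1 was at 0 in both genotypes and Trp63 in nondiabetic mice. The macrophage list rose in 6 of 6 genes in diabetic marrow (74.2 to 76.1 FPKM against 43.2 to 44.1 in nondiabetic marrow) and in 4 of 6 in diabetic wound (313 to 314 against 249 to 254 in nondiabetic wound). In the erythroid list 2 of 4 genes rose in diabetic marrow (14013 to 15050 FPKM against 6220 to 6255 in nondiabetic marrow).

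Between wound and marrow cells of nondiabetic mice, the enzymes were lower at the wound. In 13 of 15 they fell and in 1 they rose, where 86.5% of all names were called, 53.8% lower and 32.8% higher. Wound and marrow pools did not overlap in 14 of the 15, and in 92.6% of all names. The median was -1.14, against -0.38 for all names; median-ratio scaling moved the median of all names to 0.07 and that of the enzymes to -0.74, with 13 lower and 2 higher. Hsd17b7 had 0.649 and 0.658 FPKM in nondiabetic wound, against 7.45 and 6.73 in nondiabetic marrow, a ratio of 0.0922 (-2.29, SE 0.062, adjusted p = 2.36e-07). Nsdhl had a ratio of 0.175 (-2.04, SE 0.057) and Fdps, on its partial row, 0.145 (-2.57, SE 0.164). Acat2 rose, with 3.18 and 3.12 FPKM in nondiabetic wound, against 1.43 and 1.25 in nondiabetic marrow (0.83, SE 0.066). Sc5d was not called (0.06, adjusted p = 0.348), and was called higher under quantile (0.61) and median-ratio (0.58) scaling.

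In diabetic mice the same tissue comparison was mixed. Of the 15 enzymes 7 fell and 5 rose, where 85.5% of all names were called, 47.8% lower and 37.7% higher, and wound and marrow pools did not overlap in 13, against 93.1% of all names. Their median was -0.15, against -0.18 for all names. Those that rose were Acat2 (1.32), Cyp51 (1.14), Sqle (1.07), Lss (0.45) and Sc5d (0.42). Sqle had 3.79 and 4.08 FPKM in diabetic wound, against 1.43 and 1.29 in diabetic marrow, and the pools did not overlap. Those that fell were Mvd (-1.13), Hsd17b7 (-0.95), Ebp (-0.73), the Tm7sf2 row (-0.72), Fdps (-0.63), Nsdhl (-0.43) and Pmvk (-0.25). The Pmvk value turned to 0.09 and 0.04 under quantile and median-ratio scaling. The Fdps call was lost under both scalings (adjusted p = 0.19 and 0.0904) and without diabetic wound pool 1 (0.0559) or diabetic marrow pool 1 (0.0518). Without diabetic wound pool 1 or diabetic marrow pool 2 Lss was not called (adjusted p = 0.0808 and 0.0897), and without diabetic wound pool 2 or diabetic marrow pool 2 neither was Pmvk (0.126 and 0.123). The genotype difference of each enzyme's tissue effect is the same quantity as the difference tested above. In both genotypes the dividing cell list was lower at the wound, by 9 of 10 genes in diabetic and 10 of 10 in nondiabetic mice, with sums of 56.1 FPKM in diabetic wound against 186 to 188 in diabetic marrow, and 40.9 in nondiabetic wound against 288 to 302 in nondiabetic marrow.

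**Figure D3:**
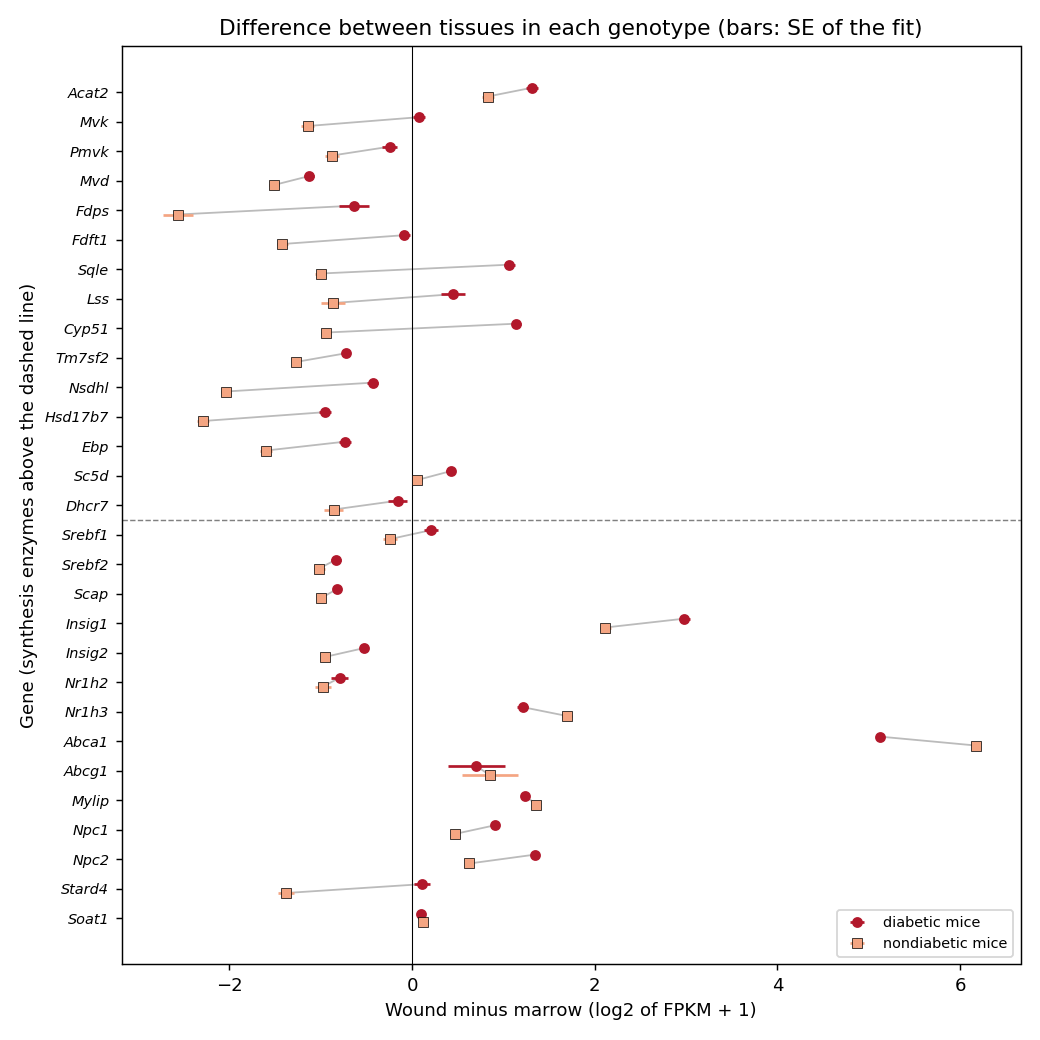
Wound minus marrow difference of each tested gene (y axis, synthesis enzymes above the dashed line) in diabetic and nondiabetic mice, on the log2(FPKM + 1) scale with SE of the fit as bars. Every enzyme sits further right in diabetic mice, for example Cyp51 at 1.14 against -0.94, while Abca1 stands at 5.13 and 6.17.

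The sensors of the pathway did not move as a block. Insig1, the retention protein that is itself a target of SREBP (chromosome 5, 28397886 to 28408690), had 41.1 and 40.2 FPKM in diabetic wound and 29.2 and 30.98 in nondiabetic wound, against 3.998 and 4.57 in diabetic marrow and 6.23 and 6.10 in nondiabetic marrow. It was higher at the wound in both genotypes, by 2.98 (SE 0.060) in diabetic and 2.12 (SE 0.060) in nondiabetic mice, and no wound pool overlapped a marrow pool. By genotype it followed the enzymes, with 0.42 in wound (adjusted p = 0.00195) and -0.44 in marrow (adjusted p = 0.00216), and the difference between tissues was 0.86 (SE 0.085, adjusted p = 5.00e-04). Insig2, the second retention protein, went the other way between tissues, with 5.31 and 5.37 FPKM in diabetic wound against 8.25 and 8.05 in diabetic marrow, and 4.56 in both nondiabetic wound pools against 9.59 and 10.0 in nondiabetic marrow. Its genotype calls, 0.19 in wound and -0.24 in marrow, were both lost with median-ratio scaling (adjusted p = 0.0722 and 0.083), and the wound call also without diabetic wound pool 2 (0.053).

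Srebf2, the SREBP gene that mainly drives cholesterol synthesis, fell with diabetes in both tissues. It had 13.6 and 13.5 FPKM in diabetic wound, against 21.7 and 21.5 in nondiabetic wound (-0.63, SE 0.059, adjusted p = 3.91e-04). In marrow it had 24.7 and 25.2 FPKM in diabetic pools, against 47.6 and 41.9 in nondiabetic pools (-0.82, SE 0.059, adjusted p = 2.25e-04). Its genotype effects did not differ between tissues by the test (0.18, 95% interval from -0.02 to 0.39, adjusted p = 0.104), except without nondiabetic marrow pool 2 (0.27, adjusted p = 0.00677), and the value was -0.020 and -0.072 under quantile and median-ratio scaling. In wound cells the transcript of this regulator was lower in diabetic pools while 8 of 15 enzymes were higher. Srebf1, which mainly serves fatty acid synthesis, had 3.86 and 4.25 FPKM in diabetic marrow, against 6.15 and 5.46 in nondiabetic marrow (-0.43, SE 0.077), and 0.01 was its difference in wound (95% interval from -0.18 to 0.20). Scap, the escort, was higher in diabetic wound (5.31 and 5.11 FPKM, against 3.95 and 3.82 in nondiabetic wound; 0.35, SE 0.045), though not when the rows of the gene were summed (0.03, adjusted p = 0.742). In diabetic marrow Scap was called higher at 0.17, a call lost without diabetic marrow pool 2, nondiabetic marrow pool 1 or nondiabetic marrow pool 2 (adjusted p = 0.108, 0.065 and 0.0751).

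Of the 5 LXR and export genes, 3 were higher at the wound in diabetic mice and 4 in nondiabetic mice. Of all names, 37.7% and 32.8% were called higher there. By genotype 1 of the 5, Nr1h3, was called lower in diabetic wound, near the share of 21.7% for all names. Abca1, the pump that loads cholesterol onto apolipoprotein A-I (chromosome 4, 53043564 to 53172922), had 133 and 131 FPKM in diabetic wound and 140.2 and 139.6 in nondiabetic wound, against 2.85 and 2.75 in diabetic marrow and 1.03 and 0.883 in nondiabetic marrow. It had the widest tissue difference of the set, with ratios of mean FPKM of 47.1 in diabetic and 146 in nondiabetic mice (5.13 and 6.17, SE 0.043 each). In marrow it rose with diabetes (0.96, SE 0.043, adjusted p = 4.48e-05), opposite to the enzymes, where 13.7% of all names were called higher. In wound the difference was -0.08 (95% interval from -0.19 to 0.02, adjusted p = 0.149), and it was called lower under quantile (-0.18) and median-ratio (-0.19) scaling and with a pseudocount of 5. The tissue dependence of its genotype effect was -1.04 (SE 0.061, adjusted p = 1.09e-04).

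Nr1h3 encodes LXR alpha, the receptor that switches on Abca1. It had 3.98 and 3.79 FPKM in diabetic wound and 5.48 and 5.90 in nondiabetic wound, against 1.07 and 1.14 in diabetic marrow and 1.02 and 1.105 in nondiabetic marrow. Wound pools were above marrow pools in both genotypes (1.21 and 1.70, SE 0.059 each), and diabetic wound was below nondiabetic wound (-0.45, SE 0.059, adjusted p = 0.00142). Nr1h2, the widely expressed LXR beta, was lower at the wound instead, with 20.7 and 20.2 FPKM in diabetic wound against 34.5 and 37.9 in diabetic marrow (-0.79, SE 0.091), and -0.97 (SE 0.091) in nondiabetic mice. Mylip, an LXR-induced ubiquitin ligase, had 28.9 and 30.1 FPKM in diabetic wound and 29.7 and 30.1 in nondiabetic wound, against 11.7 and 12.1 in diabetic marrow and 11.1 and 11.02 in nondiabetic marrow. Its tissue differences were 1.24 and 1.36 (SE 0.035 each), and genotype made no called difference in either tissue, although with median-ratio scaling it was called lower in diabetic wound (-0.13) and higher in diabetic marrow (0.23). Abcg1, the pump that passes cholesterol to HDL, varied widely between pools, at 12.4 and 10.8 FPKM in diabetic wound, 16.7 and 23.1 in nondiabetic wound, 4.91 and 9.05 in diabetic marrow and 12.9 and 8.52 in nondiabetic marrow. By genotype it was not called, at -0.72 in wound (ratio 0.581, adjusted p = 0.095), where the pools did not overlap, and -0.58 in marrow (adjusted p = 0.18); with only the groups compared the wound difference was called (adjusted p = 0.0325). Its wound minus marrow difference was 0.70 in diabetic mice (SE 0.308, adjusted p = 0.0717) and 0.85 in nondiabetic mice (adjusted p = 0.0388). The nondiabetic call was lost without any of 4 libraries, with adjusted p up to 0.185 without nondiabetic marrow pool 2. Macrophage markers were higher at the wound beside these genes, in 6 of 6 measured of 8 listed, with sums of 313 to 314 FPKM in diabetic wound against 74.2 to 76.1 in diabetic marrow, and 249 to 254 in nondiabetic wound against 43.2 to 44.1 in nondiabetic marrow. Of 10 neutrophil markers 7 were measured and 6 tested. Lower at the wound were 6 in diabetic and 5 in nondiabetic mice, against 47.8% and 53.8% of all names. The sums, carried by Camp and Retnlg, were 260.4 to 260.8 FPKM in diabetic wound against 17003 to 17338 in diabetic marrow, and 392 to 436 in nondiabetic wound against 21513 to 22497 in nondiabetic marrow. The rows of S100a9 and Ngp stayed between 0 and 3.28 FPKM in every library, and Ngp was at 0 in diabetic wound. The part of these cell types in the Abca1, Nr1h3 and Mylip levels was not tested.

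**Figure D4:**
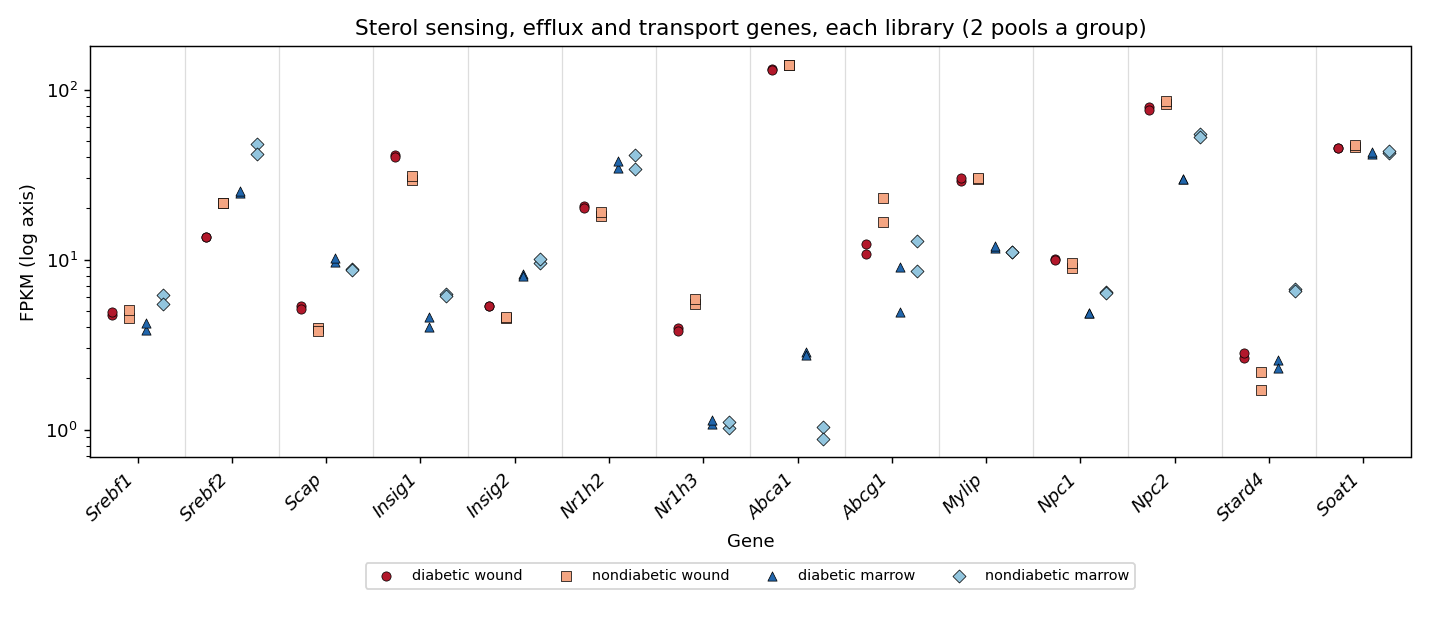
FPKM of the 14 sensing, efflux and transport genes (x axis) on a log axis (y), with 1 point per library and 4 groups of 2 pools in the order diabetic wound, nondiabetic wound, diabetic marrow and nondiabetic marrow. Abca1 spans 0.883 to 140.2 FPKM, while Soat1 stays between 41.6 and 47.2.

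Genes of sterol transport and storage were split. Npc2 and Npc1 pass cholesterol out of lysosomes. Npc2 had 78.5 and 76.1 FPKM in diabetic wound and 82.2 and 85.5 in nondiabetic wound, against 29.8 and 30.0 in diabetic marrow and 54.9 and 53.0 in nondiabetic marrow. Its marrow pools were lower in diabetic mice (-0.83, SE 0.036, adjusted p = 3.83e-05), whereas in wound the call at -0.12 was lost without either diabetic wound pool, nondiabetic wound pool 2 or either diabetic marrow pool (adjusted p = 0.0628 to 0.169). Npc1 was higher at the wound in both genotypes (0.91 in diabetic and 0.47 in nondiabetic mice, SE 0.043 each) and lower in diabetic than in nondiabetic marrow (-0.35, SE 0.043). Stard4, a soluble carrier that is an SREBP target, differed in the same direction as the enzymes, with 2.58 and 2.31 FPKM in diabetic marrow against 6.70 and 6.57 in nondiabetic marrow (-1.15, SE 0.089, adjusted p = 2.87e-04). In wound it had 2.62 and 2.81 FPKM in diabetic pools against 2.18 and 1.71 in nondiabetic pools (0.34, SE 0.089, adjusted p = 0.0199), a call lost without either diabetic wound pool or nondiabetic wound pool 2 (0.0549, 0.095 and 0.0713) and under median-ratio scaling (0.0633). Its genotype effects differed between tissues by 1.49 (SE 0.125, adjusted p = 3.03e-04). Soat1, which esterifies cholesterol for storage, was nearly level, with 45.2 and 45.3 FPKM in diabetic wound, 46.1 and 47.2 in nondiabetic wound, 41.6 and 42.8 in diabetic marrow and 42.3 and 43.3 in nondiabetic marrow. Its difference by genotype was -0.04 in wound (95% interval from -0.12 to 0.03) and -0.02 in marrow (-0.10 to 0.06). It was called lower in diabetic wound (-0.09 and -0.15) and higher in diabetic marrow (0.10 and 0.13) under quantile and median-ratio scaling.

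The 14 sensing, efflux and transport genes were mixed in direction by count, and no test against the enzymes was run. In diabetic marrow 7 fell and 2 rose (median -0.29), and in diabetic wound 4 rose and 3 fell (median -0.0038), beside the background shares given above. The difference between tissues was positive in 6 and negative in 2, with a median of 0.18 against 0.19 for all names. Between wound and marrow 8 were higher and 4 lower in diabetic mice (median 0.45), and 8 higher and 6 lower in nondiabetic mice (median 0.29). Of all names, 37.7% were called higher and 47.8% lower at the wound in diabetic mice (median -0.18). In nondiabetic mice 32.8% of all names were called higher and 53.8% lower (median -0.38). Under median-ratio scaling 2 rose and 6 fell in diabetic wound.

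Other genes of the pathway were taken from a list of 41 symbols, of which 31 had a usable row. In diabetic marrow 12 fell and 2 rose, in diabetic wound 9 rose and 6 fell, and the difference between tissues was positive in 13 and negative in 4. Of all names, 32.8% were called lower and 13.7% higher in diabetic marrow, 32.0% higher and 21.7% lower in diabetic wound, and 39.1% positive and 19.4% negative in the difference. Under median-ratio scaling these counts were 9 and 6, 8 and 12, and 10 and 9. Sc4mol, the methyl sterol oxidase that works with Nsdhl and Hsd17b7, had 21.2 and 20.7 FPKM in diabetic wound against 12.8 and 12.4 in nondiabetic wound (0.69, SE 0.032). In marrow it had 31.8 and 31.6 FPKM in diabetic pools against 57.7 and 56.2 in nondiabetic pools (-0.83, SE 0.032). Lbr, which also carries a sterol reductase activity, did not follow it, at -0.23 in wound and 0.06 in marrow (adjusted p = 0.219), and stood at 10.1 to 12.5 FPKM in wound against 160.1 to 171 in marrow.

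Promoter sequences are shown for 4 genes that the comparisons turn on, 2 enzymes with opposite genotype effects in the tissues and the 2 genes with the widest rise at the wound, a choice made after their values were seen. RefSeq promoters on GRCm38.p6, each 250 bases before to 50 after a start site, were found for 25 of the 31 symbols. They were searched on both strands for TCACNCCAC, the element that SREBP binds, for CCAAT, the box of its partner NF-Y, and for the direct repeat that LXR binds with its partner receptor. The motifs do not overlap in the sequences shown, and capitals mark CCAAT or its reverse complement ATTGG. Nsdhl lies at chrX:72918271-72918570 on the plus strand, Hsd17b7 at chr1:169969156-169969455 on the minus strand, Insig1 at chr5:28071162-28071461 on the plus strand and Abca1 at chr4:53159846-53160145 on the minus strand.
Nsdhl: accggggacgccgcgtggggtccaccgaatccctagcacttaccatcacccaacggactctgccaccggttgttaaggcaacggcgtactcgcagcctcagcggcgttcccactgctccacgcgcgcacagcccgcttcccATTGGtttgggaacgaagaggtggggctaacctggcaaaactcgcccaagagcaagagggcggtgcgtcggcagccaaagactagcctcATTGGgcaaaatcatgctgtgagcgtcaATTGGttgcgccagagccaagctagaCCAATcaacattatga
Hsd17b7: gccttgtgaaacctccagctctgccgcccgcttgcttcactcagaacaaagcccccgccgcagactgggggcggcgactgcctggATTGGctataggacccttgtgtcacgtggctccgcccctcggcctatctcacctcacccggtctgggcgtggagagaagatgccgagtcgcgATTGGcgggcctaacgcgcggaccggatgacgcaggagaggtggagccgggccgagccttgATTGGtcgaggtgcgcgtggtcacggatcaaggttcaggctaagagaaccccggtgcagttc
Insig1: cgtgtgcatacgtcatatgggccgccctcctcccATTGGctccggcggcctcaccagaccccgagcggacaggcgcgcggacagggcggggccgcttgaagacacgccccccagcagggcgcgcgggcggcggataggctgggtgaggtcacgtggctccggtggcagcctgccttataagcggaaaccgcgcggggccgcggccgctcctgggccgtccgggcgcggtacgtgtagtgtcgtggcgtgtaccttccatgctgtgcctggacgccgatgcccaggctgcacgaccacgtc
Abca1: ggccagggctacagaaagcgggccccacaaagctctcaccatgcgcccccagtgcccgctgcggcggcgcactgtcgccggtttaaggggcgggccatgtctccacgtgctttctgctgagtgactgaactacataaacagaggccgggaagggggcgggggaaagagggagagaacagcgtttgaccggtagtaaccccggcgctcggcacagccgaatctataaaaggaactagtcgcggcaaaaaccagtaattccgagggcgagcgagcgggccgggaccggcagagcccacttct

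The printed promoters held 4, 3, 1 and 0 CCAAT matches for Nsdhl, Hsd17b7, Insig1 and Abca1. The 15 promoters listed for tested enzymes belong to 12 genes, as some genes have several and Fdps, Fdft1 and Sqle have none. Of these promoters 11 held a CCAAT match, or 73.3%, against 37.4% of all 32851 promoters of the same length. By gene, 11 of 12 did, or 91.7%, against 41.1% of all genes with a promoter. For the tested sensing, efflux and transport genes 8 of 17 promoters did, or 47.1%, and 7 of 11 genes, or 63.6%. None of those promoters held the exact letters of TCACNCCAC or of the LXR repeat, which 1.24% and 0.0213% of all promoters hold. Among the members left out of this tally because they were not tested, the Hmgcs1 promoter held 1 TCACNCCAC and 4 CCAAT matches, and the Idi1 promoter 2 CCAAT matches. A match describes letters in this window and shows no binding, and a window without a match leaves the factor unaddressed.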

How the data were processed

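Libraries of total RNA from pooled Gr-1+ cells (2 pools in each of 4 groups) were sequenced on 1 lane each, per the labels. The deposited table gives FPKM per locus for 39330 loci, made by the authors with TopHat and Cufflinks on mm9, per the submitters' processing notes; versions, annotation and strand handling are not given in the sources used here. Cufflinks estimates rather than counts, so no count test was run.

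Each gene name was represented by its row of at least 200 bp with status OK in all libraries and the highest mean FPKM. Names with at least 1 FPKM in at least 2 libraries were tested, 13065 in all, with limma 3.58.1 in R 4.3.3 on log2(FPKM + 1), which understates changes of low genes. One fit held all 8 libraries (trend, 4 residual degrees of freedom), with 5 two-sided contrasts, Benjamini-Hochberg adjustment over all names and a threshold of 0.05. The test was tried on simulated data. Ratios are of mean FPKM. All 31 members were named, by rule; the members, gene lists and markers were chosen with earlier results of these data known. Alternatives were another pseudocount (0.1 or 5), no filter or one of 5 FPKM, quantile and median-ratio scaling, no trend, summed rows, rows of any length, pool blocks, only the groups compared, a difference of at least 1, and leaving out each library. Figures were drawn with matplotlib 3.10.9. Loci with a failed status in any library were not used, and some genes of the lists are not reported here.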

Additional observations from a re-analysis of the deposited data

Results flagged for a closer look

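The effect of diabetes differed between wound and marrow, by the test of that difference (limma, wound minus marrow, adjusted p under 0.05), in 23 of the 29 genes tested. All values are on the log2(FPKM + 1) scale, and a positive one means that the diabetic minus nondiabetic difference was higher in wound than in marrow. Among the enzymes before squalene, the difference was 0.49 for Acat2, 1.22 for Mvk, 0.63 for Pmvk, 0.38 for Mvd, 1.93 for Fdps and 1.34 for Fdft1. From squalene onward it was 2.07 for Sqle, 1.31 for Lss, 2.08 for Cyp51, 0.55 for the Tm7sf2 row, 1.61 for Nsdhl and 1.34 for Hsd17b7. The last enzymes had 0.86 for Ebp, 0.36 for Sc5d and 0.70 for Dhcr7.

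Among the sensing genes the difference was 0.44 for Srebf1, 0.86 for Insig1 and 0.43 for Insig2. The Srebf1 call was lost under quantile (adjusted p = 0.0856) and median-ratio scaling (adjusted p = 0.129) and without diabetic wound pool 2 (adjusted p = 0.0509). The efflux genes had the only negative values among these 23, -0.48 for Nr1h3 and -1.04 for Abca1. For transport genes it was 0.45 for Npc1, 0.71 for Npc2 and 1.49 for Stard4. Across all 13065 names 58.5% passed the same test.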

How the results depend on the processing

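Of 2933 recomputed gene values over 145 gene and contrast pairs, 2791 kept direction and call, 80 lost the call, 30 gained it and 32 changed sign. In 8 of the 32 the value was called before or after, all with quantile and median-ratio scaling: Pmvk (0.092 and 0.036) and Fdft1 (0.24 and 0.20) between wound and marrow of diabetic mice, Srebf1 (0.13 and 0.24) in nondiabetic mice, and Soat1 (0.096 and 0.13) by genotype in marrow. The others were called neither before nor after. With quantile scaling Mvk in the diabetic tissue comparison had -0.15, and with median-ratio scaling Dhcr7 had 0.057. By genotype, quantile and median-ratio scaling gave -0.054 and -0.078 for Srebf1 in wound and 0.065 and 0.089 for Nr1h2 in marrow. For the difference between tissues they gave -0.020 and -0.072 for Srebf2, and median-ratio scaling gave -0.040 for Scap and -0.065 for Nr1h2. Summed rows gave 0.0029 for Fdft1 between diabetic wound and marrow, -0.091 for Acat2 by genotype in wound, and -0.27 for Scap and 0.24 for Abcg1 in the difference between tissues. Without single libraries the values of genes that changed sign ran from -0.0035 to 0.12 for Sc5d between nondiabetic wound and marrow, from -0.054 to 0.080 for Srebf1 and -0.049 to 0.0079 for Mylip by genotype in wound, from -0.19 to 0.074 for Nr1h2 and -0.040 to 0.00098 for Soat1 by genotype in marrow, and from -0.53 to 0.24 for Abcg1 in the difference between tissues. The cause was not tested.

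Requiring a difference of at least 1 left, between wound and marrow of diabetic mice, 3 enzymes higher and 1 lower, with 5 and 0 other genes. In nondiabetic mice it left 0 enzymes higher, with 4 other genes higher and 2 lower. Enzymes still lower at the wound there included Mvk, Mvd, Fdps, Fdft1, the Tm7sf2 row, Nsdhl, Hsd17b7 and Ebp. By genotype it left 0 of all genes in wound, and 4 enzymes lower with 0 other genes higher and 1 lower in marrow. For the difference between tissues it left 8 enzymes, and 1 other gene higher and 1 lower. The filter at 5 FPKM, which tests fewer genes, left 2 enzymes higher at the wound in diabetic and 0 in nondiabetic mice. Both scalings gave 2 enzymes higher at the wound in nondiabetic mice. They also gave 5 (quantile) and 6 (median-ratio) other genes lower in diabetic wound, with 2 higher under median-ratio scaling, and under both 4 other genes higher in diabetic marrow and 4 with a negative difference between tissues. Enzymes lower in diabetic wound numbered 1 with a pseudocount of 5, no filter, no trend or rows of any length. Rows on their own gene, added after the data were seen, left 4 enzymes higher in diabetic wound, where 32.0% of all names were called higher. With only the groups compared, 1 other gene was higher in diabetic marrow. Without single libraries, enzymes lower in diabetic wound numbered 1 to 2, other genes higher there 2 to 4, and other genes higher in diabetic marrow 1 to 2; enzymes lower in diabetic marrow numbered 13 to 15 and positive differences between tissues 15 in every case.

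The labels number the pools 1 and 2 but do not say that a number marks the same mice in marrow and wound, so pairing was not assumed. Pool differences of wound and marrow correlated at -0.12 in diabetic and -0.21 in nondiabetic mice. With the pool number as a replicate block, 1 enzyme was lower in diabetic wound, while 8 were higher there, 15 were lower in diabetic marrow and 15 differed between tissues. With a block for the set of mice within each genotype, 15 enzymes still differed between tissues, and 13 were lower at the wound in nondiabetic mice. With 2 pools in each group and no counts, the depth behind a low FPKM is known only roughly.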

Other observations

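Fatty acid genes that share the SREBP system with cholesterol synthesis did not all follow the enzymes. Scd1, the desaturase that makes oleic acid, had 10.2 FPKM in both diabetic wound pools, against 2.04 and 2.33 FPKM in nondiabetic wound (log2 difference 1.82, SE 0.066). It also rose in marrow, with 5.68 and 5.65 FPKM in diabetic pools, against 1.53 and 1.34 FPKM in nondiabetic pools (1.45, SE 0.066), where all 15 tested cholesterol enzymes fell. Its relative Scd2 had 8.85 and 8.52 FPKM in diabetic wound, against 7.03 and 6.61 in nondiabetic wound (0.31, SE 0.048), and 5.62 and 5.33 in diabetic marrow, against 9.43 and 9.21 in nondiabetic marrow (-0.67, SE 0.048), on a row that extends 93737 bp beyond the gene. Sebaceous gland cells also express Scd1, and Elovl3, the measured marker of those cells, was 2.56 to 2.78 FPKM in diabetic wound against 0.119 to 0.177 in nondiabetic wound, while in marrow it was 0.372 to 0.431 in diabetic against 0.476 to 0.485 in nondiabetic pools; its part in the Scd1 levels was not tested.

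Genes of cholesterol uptake and lysosomal release were also lower in diabetic marrow. Scarb1, the HDL receptor, had 10.6 and 11.6 FPKM in diabetic marrow, against 19.8 and 18.6 in nondiabetic marrow (-0.74, SE 0.051), and 13.2 and 13.5 in diabetic wound, against 9.95 and 9.81 in nondiabetic wound (0.40, SE 0.051). Lipa, the lysosomal acid lipase that frees cholesterol from its esters, had 21.7 and 23.3 FPKM in diabetic marrow, against 37.4 and 38.5 in nondiabetic marrow (-0.73, SE 0.053). In wound Lipa was not called (0.15, adjusted p = 0.0532), with 36.7 and 36.8 FPKM in diabetic pools against 31.6 and 34.5 in nondiabetic pools. These genes were singled out from the pathway list after their values were seen.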
